A study of Drosophila melanogaster with 19 samples.

Results

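Of 15021 genes with known transcripts in the table of S2R+ cells, 251 had at least 2 active promoters on 1 chromosome and strand. A gene was counted when at least 2 of its known transcripts each averaged an FPKM of at least 5 over the 9 libraries and their transcription start sites (TSS, the 5′ ends of the transcript models) lay at least 1000 bp apart. FPKM express mapped fragments relative to transcript length and library total. S2R+ is a Drosophila line of embryonic origin with traits of hemocytes, the insect blood cells. The cells were given double-stranded RNA (dsRNA) against mip40, mip120 or mip130 (2 libraries each), against E2F2 (1 library), or against GFP, a target these cells do not hold, as the control (2 libraries). All groups received dsRNA on each of 4 days at 25 °C, at 30 µg/ml without serum and then at a final 10 µg/ml in medium with 10% serum, and RNA was selected with oligo-dT. The genes were chosen by their mean FPKM, so their levels are a description. The split of each gene's FPKM between its promoters was compared between groups.

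A gene with several promoters can make mRNAs that differ in their first exon, and through it in their leader or in the start of the protein. Which promoter is used is often set by cell type, since each is read by its own set of transcription factors and chromatin marks. The targets of the dsRNA belong to dREAM, a complex that sits on chromatin, joins E2F and retinoblastoma-family proteins with Myb and its partners (the mip proteins), and represses many genes at their promoters. mip40, mip120 and mip130 are shared core subunits, and E2F2 is its repressive E2F protein.

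The targeted transcripts were left at 3.96% (mip40), 59.6% (mip120), 16.4% (mip130) and 9.45% (E2f2) of their GFP level, so mip120 RNAi was the weakest depletion. Of 12 hemocyte markers in the table, 10 reached an FPKM of 1 in GFP cells, while the muscle, fat body and gut lists each summed to at most 0.977 FPKM in any library. Of the germ cell markers aub and bam reached 1 in GFP cells, as did elav among neuronal and fz2 among ovarian somatic ones. The germ cell list summed to 49.3 to 74.7 FPKM in the mip libraries and 57.9 in E2F2 RNAi, against 42.5 to 48.2 in GFP RNAi, and its part in the results was not tested. FPKM over all transcripts summed to between 618451 and 774009 per library. The deposited values hold no counts, so depth is unknown. E2F2 RNAi has 1 library and therefore no replicate check, and no label says that replicates were separate cultures, so a p-value covers the spread of these libraries alone, which may be technical.

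The 251 genes held 745 active transcripts. Of the genes, 121 had 2 such transcripts, 65 had 3, 41 had 4 and 24 had 5 or more, with 12 at most. They lay on 3R (67 genes), X (55), 2R (46), 3L (44), 2L (38) and 4 (1). The distance between the most upstream TSS and the first TSS at least 1000 bp downstream of it had a median of 3452 bp, with the middle 80% of genes between 1215 and 18634 bp. klar, which encodes a protein that positions nuclei, had the longest, at 99493 bp. Most genes fell into a pair of promoter groups when TSS less than 1000 bp from the next were joined (211 genes), 35 formed 3 or more groups and 5 formed a single chain.

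The upstream and the downstream promoter differed in their surroundings. An opposite-strand gene started within 1000 bp behind the upstream TSS in 80 genes, against 16 genes for the first downstream TSS. By the rule, the 1000 bp behind the first downstream TSS lie between the promoters, so part of this contrast may be built in. A TSS of another gene lay between the promoters in 45 genes. The first exon of the most abundant transcript was longer on the upstream side in 147 genes and on the downstream side in 103, with medians of 257 and 208 bp. No source used here gives the strand setting, so reads of an overlapping opposite-strand gene cannot be told apart from those of the gene itself.

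The upstream share is the FPKM of the active transcripts starting less than 1000 bp from the most upstream TSS, as a percentage of the FPKM of all active transcripts of the gene. In GFP cells its median over the 251 genes was 52.3%. Both promoters carried at least 20% in 157 genes, the downstream side carried over 80% in 40 and the upstream side over 80% in 54. The medians in RNAi cells were 54.2% (mip40), 53.2% (mip120), 49.9% (mip130) and 52.3% (E2F2). Across the genes the GFP share had a Spearman correlation of -0.09 with the distance between promoters, a description over 251 genes that share the same libraries.

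**Figure D1:**
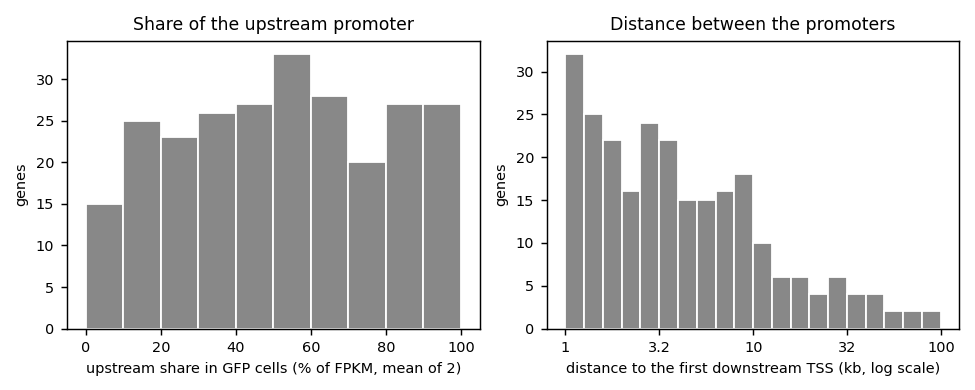
Left, the number of genes by mean upstream share (percent of FPKM) in the 2 GFP libraries. Right, the number of genes by distance between the most upstream TSS and the first downstream TSS (kb, log scale). The shares cover the whole scale around a median of 52.3%, and the distances pile up near the minimum of 1 kb with a tail to 99493 bp.

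Replicate libraries differed by a median of 4.54 percentage points of share in mip40, 2.88 in mip120, 3.08 in mip130 and 3.49 in GFP cells. The difference exceeded 10 points in 47, 34, 34 and 39 genes of these groups. Over all 9 libraries the range of a gene's share had a median of 16.99 points. It stayed under 10 points in 67 genes and exceeded 40 points in 22.

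The genes with the smallest range of share, among those above a mean total of 20 FPKM, had shares near 0 or 100%, where a small range is built into the scale. Fim, an actin-bundling fimbrin, had 98.7 to 99.2% upstream in all 9 libraries. ImpL2, a secreted antagonist of insulin signalling, had 0.2 to 0.753%, with 1018 to 1738 FPKM on the downstream side. Cp1, a lysosomal cathepsin, had 98.8 to 99.6%, and Eb1, a microtubule plus-end protein, 98.3 to 99.1%. The least reproducible genes were CG15478, Hmgs, Lmpt and CG2246. Hmgs, which makes the precursor of mevalonate, had a share of 30.0% and 0.0397% in mip120 RNAi, against 59.2% and 39.3% in GFP RNAi, so replicates lay far apart. Near the FPKM threshold, the genes just inside were fray, Lmpt, CG2246 and ImpL2, still passing at thresholds of up to 5.11, 5.12, 5.19 and 5.20 FPKM. Those just outside were CG42684, CLIP-190, br and Gs2, at 4.96, 4.93, 4.91 and 4.84 FPKM.

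A changed promoter share was called in 2, 16, 19 and 1 of the 251 genes in mip40, mip120, mip130 and E2F2 RNAi. The difference between these counts was not tested, and E2F2 RNAi has 1 library. The test was limma on log2((upstream FPKM + 1)/(downstream FPKM + 1)), called the log2 ratio below, with Benjamini-Hochberg adjustment at 0.05 over 504 genes, the 251 and another 253 with promoters at a mean of at least 1 FPKM. Of the 251 genes the share was higher in 2 in mip40 RNAi, beside 0.595% of all 504 genes, and lower in 0, beside 0.198% (0.794% called in either direction). In mip120 RNAi it was higher in 9, beside 1.98%, and lower in 7, beside 2.58% (4.56% in either). In mip130 RNAi it was higher in 14, beside 3.17%, and lower in 5, beside 2.98% (6.15% in either). In E2F2 RNAi it was higher in 1, beside 0.198%, and lower in 0, beside 0%. At an unadjusted limma p under 0.05 there were 23, 70, 64 and 52 of the 251 genes in mip40, mip120, mip130 and E2F2 RNAi, beside 52, 113, 115 and 89 of all 504. The calls made up 0.797%, 6.37%, 7.57% and 0.398% of the 251 genes in the same order, beside 0.794%, 4.56%, 6.15% and 0.198% of all 504. The 504 include the 251, which makes these shares alike in part by construction, and the 251 were not tested against the other 253. In mip130 RNAi 16 of all 504 genes were higher and 15 lower, against 14 and 5 of the 251. In all, 28 genes passed in at least 1 comparison and 223 in none, and the 4 comparisons share the same GFP libraries.

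These counts rest on single libraries. In mip40 RNAi 0 calls were left without GFP library 2, 1 without either mip120 library and 3 without mip40 library 2. In mip120 RNAi there were 2 without mip120 library 2, 6 without mip120 library 1 and 3 without either GFP library. In mip130 RNAi there were 2 without either GFP library, 4 without either mip130 library, 9 without either mip120 library and 11 without either mip40 library. In E2F2 RNAi there were 0 without GFP library 2 and 2 without GFP library 1. Of the 38 calls, 3 passed whichever of the 9 libraries was left out: apt in mip120 and mip130 RNAi and Ptpmeg in mip130 RNAi. Both genes lay under 5 FPKM upstream in GFP cells and entered the set only through RNAi libraries in which that side was high, so these 3 calls are no sign of stability for the set. No call changed sign in these fits.

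**Figure D2:**
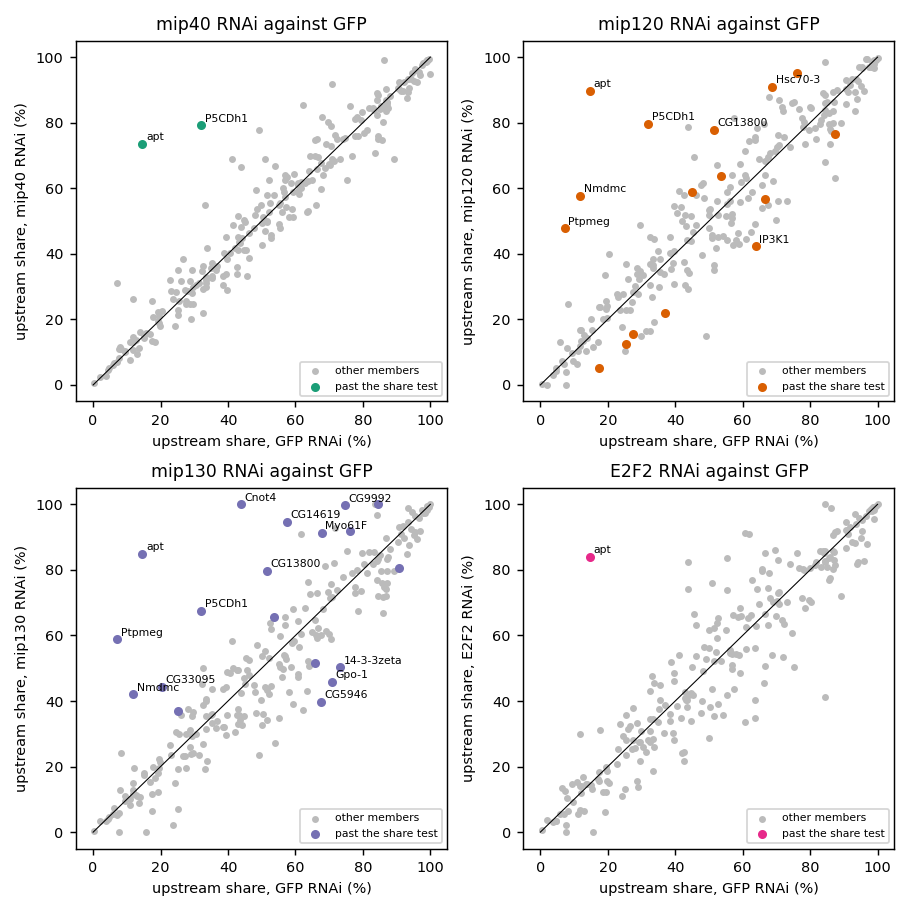
Mean upstream share (percent) in each RNAi group on the y axis against the mean in the 2 GFP libraries on the x axis, 1 point per gene (251), with genes past the share test in colour and the line of equal shares. The E2F2 values come from 1 library. apt lies far above the line in all 4 panels, and genes with a difference of at least 20 points that passed the test are named.

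Counted without a test, the libraries of an RNAi group and of GFP did not overlap in share for 97 genes in mip40, 157 in mip120, 159 in mip130 and 198 in E2F2 RNAi. These are 38.6%, 62.5%, 63.3% and 78.9% of the 251, beside 37.3%, 56.5%, 58.9% and 77.2% of all 504 genes. A single library falls outside the range of the GFP libraries more easily than 2 libraries do, so the E2F2 count is not comparable with the others. The median absolute difference of share was 2.87, 4.93, 5.66 and 4.96 points in the 251 genes, and 2.75, 3.90, 4.66 and 4.64 in all 504. The side that carried most of the FPKM changed to upstream in 12, 18, 9 and 12 genes and to downstream in 9, 17, 19 and 15, comparing group means. Replicates were not required to agree in these counts, which were not taken over all 504 genes and so have no background.

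apt, a transcription factor of tracheal and head development (2R, forward strand, TSS at 19452377 and 19468613), shifted to its upstream promoter in all 4 RNAi groups. Its upstream share was 72.0% and 75.2% in mip40, 87.4% and 92.0% in mip120, 82.3% and 87.3% in mip130 and 83.9% in E2F2 RNAi, against 15.7% and 13.5% in GFP RNAi. No RNAi library overlapped the GFP libraries. The upstream transcript stood at 15.1 and 16.7 FPKM in mip40, 18.6 and 17.1 in mip120, 17.7 and 15.6 in mip130 and 20.8 in E2F2 RNAi, against 2.06 and 1.81 in GFP RNAi. The downstream transcript stood at 5.89 and 5.52 FPKM in mip40, 2.68 and 1.49 in mip120, 3.81 and 2.27 in mip130 and 3.99 in E2F2 RNAi, against 11.1 and 11.6 in GFP RNAi. The promoters thus moved in opposite directions. The log2 ratio changed by 3.41 ± 0.28 (SE) in mip40, 4.71 ± 0.28 in mip120, 4.22 ± 0.28 in mip130 and 4.20 ± 0.34 in E2F2 RNAi, with limma adjusted p of 0.0047, 0.000602, 0.000957 and 0.00452. The E2F2 error and p rest on 1 library, which is assumed to vary like the libraries of the other groups. The mip40 call (adjusted p = 0.0792) and the E2F2 call (0.0545) were lost without GFP library 2. The total of apt also rose in all 4 groups, to 25.6, 25.2, 26.4 and 33.3 FPKM, against 13.97 in GFP RNAi. The upstream transcript was under 5 FPKM in GFP cells, so apt entered the set through the RNAi libraries.

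Ptpmeg is a tyrosine phosphatase with FERM and PDZ domains (3L, promoters 19362 bp apart). Its upstream side was higher and its downstream side lower in mip120 and mip130 RNAi, as in apt. Its upstream share was 43.9% and 51.7% in mip120 and 59.4% and 58.3% in mip130 RNAi, against 10.6% and 3.84% in GFP RNAi. It stood at 33.0% and 29.0% in mip40 and 12.7% in E2F2 RNAi, where the test was not passed. The upstream transcript reached 12.6 and 12.6 FPKM in mip120 and 14.5 and 18.01 in mip130 RNAi, against 2.57 and 0.946 in GFP RNAi, while the downstream one was at 16.1 and 11.7, and 9.90 and 12.9, against 21.7 and 23.6. The log2 ratio rose by 3.05 ± 0.36 in mip120 (limma adjusted p = 0.00849) and 3.64 ± 0.36 in mip130 RNAi (0.00544), and the mip120 call was lost without mip120 library 2 (0.0995). Ptpmeg too was under the threshold on its upstream side in GFP cells.

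In 3 further genes the upstream side gained more than the downstream side lost. Nmdmc, a mitochondrial enzyme of one-carbon metabolism (3R, 1308 bp), had an upstream share of 56.6% and 58.8% in mip120 and 46.2% and 37.8% in mip130 RNAi, against 14.7% and 9.05% in GFP RNAi. Its upstream transcript stood at 48.2 and 52.8 FPKM in mip120 RNAi, against 9.18 and 5.96 in GFP RNAi, with no overlap. The log2 ratio rose by 3.21 ± 0.34 in mip120 (limma adjusted p = 0.00849) and 2.31 ± 0.34 in mip130 RNAi (0.0229). Taken alone, the upstream transcript passed the test over 12752 transcripts in all 4 RNAi groups, with 17.01 and 19.3 FPKM in mip40 and 26.8 in E2F2 RNAi. The mip120 call was lost without mip120 library 2, and the mip130 call without either mip130 or either GFP library.

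P5CDh1, which oxidises the product of proline breakdown (3L, 1229 bp), was the other gene called in mip40 RNAi. Its upstream share was 84.2% and 74.1% in mip40, 78.8% and 80.6% in mip120 and 76.7% and 58.5% in mip130 and 28.1% in E2F2 RNAi, against 30.2% and 33.9% in GFP RNAi. The log2 ratio rose by 2.91 ± 0.43 (limma adjusted p = 0.0476), 2.90 ± 0.43 (0.0233) and 2.09 ± 0.43 (0.0457) in mip40, mip120 and mip130 RNAi. In mip120 RNAi the upstream side had 37.96 and 41.04 FPKM and the downstream side 10.2 and 9.89, against 12.2 and 14.4 upstream and 28.2 and 28.1 downstream in GFP RNAi, so the larger side swapped. Each of these 3 calls was lost when either GFP or either mip120 library was left out. The mip40 and mip130 calls were also lost without either mip40 library, and the mip130 call without mip130 library 1.

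Hsc70-3, the Hsp70 chaperone of the endoplasmic reticulum (X, 1819 bp), had an upstream share of 88.8% and 93.3% in mip120 RNAi, against 69.3% and 68.0% in GFP RNAi. Its upstream side stood at 1216 and 1146 FPKM in mip120 RNAi, against 412 and 446 in GFP RNAi, and its downstream side at 154 and 82.9, against 182 and 210. The log2 ratio rose by 2.24 ± 0.26 (limma adjusted p = 0.00849), and without GFP library 1 or 2 the adjusted p was 0.0547 or 0.0599. The mip130 share, 82.8% and 79.7%, lay above both GFP libraries but did not pass, and the E2F2 share, 54.2%, lay below both.

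**Figure D3:**
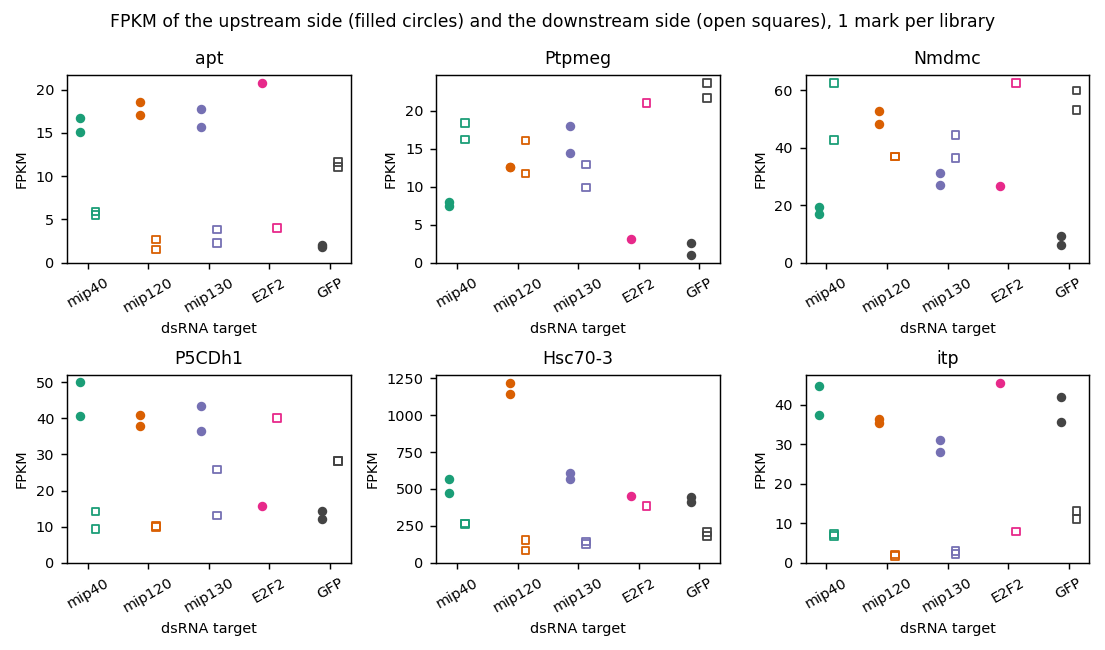
FPKM of the upstream side (filled circles) and the downstream side (open squares) in each library, by dsRNA target, for 6 genes. In apt the circles lie above the squares in all RNAi groups and below them in GFP, and in itp the squares are lowest in mip120 and mip130 RNAi.

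In a second set of genes the upstream share rose with a lower downstream side and an upstream side that moved less. itp, the ion transport peptide gene (2R, 3752 bp), had 2.08 and 1.69 FPKM downstream in mip120 and 2.25 and 2.98 in mip130 RNAi, against 11.01 and 13.1 in GFP RNAi. Its upstream transcript stood at 36.4 and 35.3, and 28.1 and 31.2 FPKM, against 35.5 and 42.0. The share was therefore 94.6% and 95.4%, and 92.6% and 91.3%, against 76.3% and 76.2% (log2 ratio 2.07 ± 0.22, limma adjusted p = 0.00849, and 1.48 ± 0.22, 0.0229). Both calls were lost without either GFP library, the mip120 call also without mip120 library 2 and the mip130 call without either mip130 library. Over the alternative settings given below, the log2 ratio change of itp ranged from 0.31 to 2.51 in mip120 and from 0.049 to 1.79 in mip130 RNAi. CG13800, whose current symbol is Svil, an actin-binding protein of the villin family, did likewise, with 2.65 and 2.25 FPKM downstream in mip120 and 1.95 and 2.52 in mip130 RNAi, against 11.2 and 9.82 in GFP RNAi, and the mip120 call did not survive the loss of any 1 of the 9 libraries, the mip130 call that of any but the E2F2 library. CG42669 is listed under the same current symbol, so the 251 symbols stand for 250 genes at most. The downstream side of itp and CG13800 lay under 5 FPKM in mip120 and mip130 RNAi, so both entered the set through other libraries.

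Cnot4, a ubiquitin ligase associated with the CCR4-NOT complex (2L, 1285 bp), had a downstream transcript listed at 0 in both mip130 libraries, against 11.9 and 14.4 FPKM in GFP RNAi. It stood at 11.8 and 4.05 in mip40, 4.35 and 4.11 in mip120 and 4.46 in E2F2 RNAi. The upstream side, 14.5 and 14.5 FPKM in mip130 RNAi against 9.03 and 11.5 in GFP RNAi, then held all FPKM of the active known transcripts (limma adjusted p = 0.00882). The call was lost without mip130 library 2 or either GFP library. The summed total of Cnot4, which also takes in other models, was 26.3 against 30.2 FPKM and did not pass its test. CG9992 had 0.543 and 0.0142 FPKM downstream in mip130 RNAi, against 17.2 and 35.4 in GFP RNAi. CG14619, whose current symbol is that of the ubiquitin protease Usp2, had 0.0111 and 2.47, against 20.9 and 25.8. Both calls were lost when any 1 of the mip120 or GFP libraries or mip130 library 1 was left out, that of CG9992 also without mip130 library 2 and that of CG14619 without either mip40 library. An FPKM of exactly 0 can be a failed estimate. The downstream side of Cnot4, CG9992 and CG14619 lay under 5 FPKM in mip130 RNAi, so they too entered the set through other libraries.

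Of the genes higher in share that the naming rule did not reach, and named here after their values were seen, Myo61F, a class I myosin, and tlk, a Tousled-like kinase, also had the lower downstream side in mip130 RNAi. Myo61F stood at 3.27 and 1.41 FPKM downstream, against 9.40 and 7.99 in GFP RNAi. tlk stood at 0.00124 and 0 FPKM, against 3.89 and 12.5. Myo61F and tlk thus lay under 5 FPKM downstream in mip130 RNAi and entered the set through other libraries. Over the alternative settings given below, the log2 ratio change of tlk ranged from 0.31 to 5.93. porin, the channel of the outer mitochondrial membrane, had a share of 65.1% and 62.3% in mip120 and 66.0% and 65.4% in mip130 RNAi, against 52.1% and 55.3% in GFP RNAi. CG33095 had 42.9% and 46.0% in mip130 RNAi, against 25.2% and 15.6%. Each of these calls was lost without either GFP library and without at least 1 library of the RNAi group concerned. The mip120 call of porin did not survive the loss of any 1 of the 9 libraries, and that of CG33095 the loss of any but the E2F2 library. Those of Myo61F and tlk were also lost without either mip40 library, and that of Myo61F without either mip120 library.

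The upstream share was lower in 7 genes in mip120 RNAi, and in 5 of them the upstream side moved more than the downstream one. In pnt, an ETS transcription factor downstream of Ras (3R, 31852 bp), the upstream transcript stood at 34.5 and 33.6 FPKM in mip120 RNAi, against 69.5 and 66.9 in GFP RNAi, while the downstream side stood at 125 and 118, against 105 and 130. Its share was 21.5% and 22.2%, against 39.8% and 33.9% (log2 ratio -1.04 ± 0.17, limma adjusted p = 0.0233). Over the alternative settings given below, this change ranged from -1.22 to -0.26. The summed total of pnt, which also takes in new isoforms and other overlapping models, was 414 against 443 FPKM and did not pass its test. In sty, the receptor tyrosine kinase inhibitor sprouty (3L, 6486 bp), the upstream transcript stood at 74.1 and 54.9 FPKM, against 204 and 196, and the share was 13.6% and 11.2%, against 27.8% and 22.8% (-1.24 ± 0.22, adjusted p = 0.0316). In spi, which encodes a ligand of the EGF receptor (2L, 4705 bp), the upstream side stood at 193 and 174 FPKM, against 275 and 291, and the downstream side at 152 and 128, against 148 and 137 (-0.59 ± 0.11, adjusted p = 0.0405).

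In fray and IP3K1 the downstream side moved more than the upstream one. fray, a Ste20-family kinase (3R, 11380 bp), had 72.2 and 71.1 FPKM downstream in mip120 RNAi, against 29.2 and 38.4 in GFP RNAi, and 3.52 and 4.16 upstream, against 7.70 and 6.14 (log2 ratio -1.78 ± 0.30, limma adjusted p = 0.0251). Its upstream side lay under 5 FPKM in mip120 RNAi, so fray entered the set through other libraries. IP3K1, an inositol trisphosphate kinase (2L, 3862 bp), had 36.0 and 42.5 FPKM downstream, against 25.7 and 20.4, and its share was 43.5% and 41.1%, against 61.0% and 66.8% (-1.24 ± 0.25, adjusted p = 0.0494). In loco, a regulator of G-protein signalling, the share was 15.1% and 15.96% in mip120 and 37.9% in E2F2 RNAi, against 29.2% and 25.7% in GFP RNAi. In Mnt, the Max-binding antagonist of Myc, it was 74.5% and 78.4%, against 86.9% and 87.6%. Each of these 7 calls was lost when either mip120 or either GFP library was left out, and those of IP3K1, Mnt, loco, spi and sty also when other libraries were.

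The 5 genes with a lower upstream share in mip130 RNAi had a higher downstream and a lower upstream side on the log2(FPKM + 1) scale. 14-3-3zeta, an adaptor that binds phosphorylated proteins and the most abundant of the 251 genes (2R, 1359 bp), had an upstream share of 53.4% and 47.2% in mip130 RNAi, against 68.6% and 77.8% in GFP RNAi (log2 ratio -1.45 ± 0.29, limma adjusted p = 0.0457). Gpo-1, the mitochondrial glycerol-3-phosphate dehydrogenase (2R, 1402 bp), had 50.8% and 40.9%, against 71.3% and 70.2% (-1.42 ± 0.27, adjusted p = 0.0433). CG5946 had 36.7% and 42.7%, against 69.5% and 65.6% (-1.45 ± 0.28, adjusted p = 0.0433). The shares of these genes did not overlap between mip130 and GFP RNAi. vir-1, a gene induced by virus infection, had 51.4% and 51.5%, against 64.4% and 67.3%, and Rox8, an RNA-binding protein, had 82.8% and 78.3%, against 91.6% and 89.7%. Each of these 5 calls was lost when any 1 of the mip130, mip120 or GFP libraries was left out, and those of vir-1 and Rox8 also without either mip40 library.

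**Figure D4:**
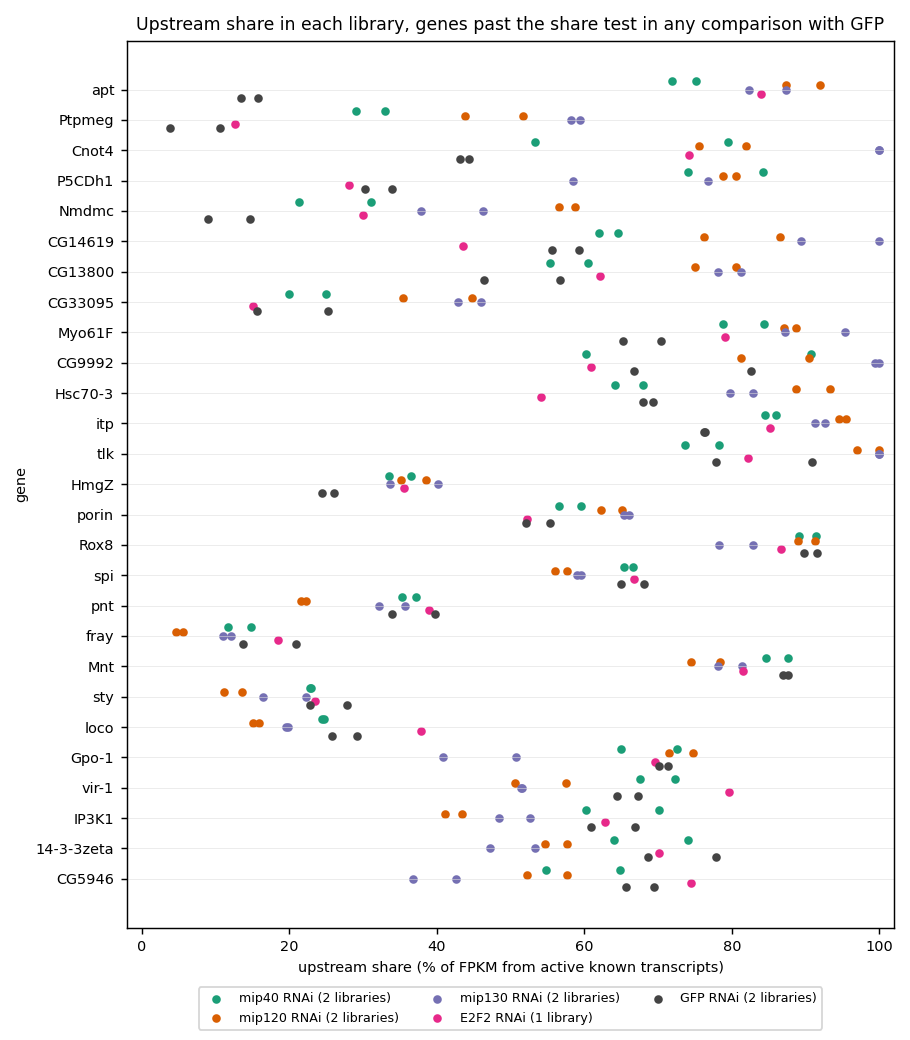
Upstream share (percent of FPKM from active known transcripts) in each library for 27 of the 28 genes past the share test in any comparison with GFP, 1 row per gene and 1 point per library, coloured by dsRNA target. Rows run by the mean difference of mip120 and mip130 RNAi minus GFP, with apt at the top and CG5946 at the bottom.

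Counting sides over the called genes, the upstream side was higher and the downstream side lower in 2 of 2 genes in mip40, 7 of 16 in mip120, 10 of 19 in mip130 and 1 of 1 in E2F2 RNAi. The upstream side was lower and the downstream side higher in 5 genes in mip120 and 5 in mip130 RNAi, and both were lower in 4 and 4. The side with the larger change was upstream in 11 of 16 genes in mip120 RNAi. It was downstream in 12 of 19 in mip130 RNAi. The difference between these counts was not tested. Of the called genes, 1 of 2, 11 of 16, 10 of 19 and 0 of 1 in mip40, mip120, mip130 and E2F2 RNAi passed the rule on both compared groups alone. The rest failed it on at least 1 of the 2 compared groups.

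**Figure D5:**
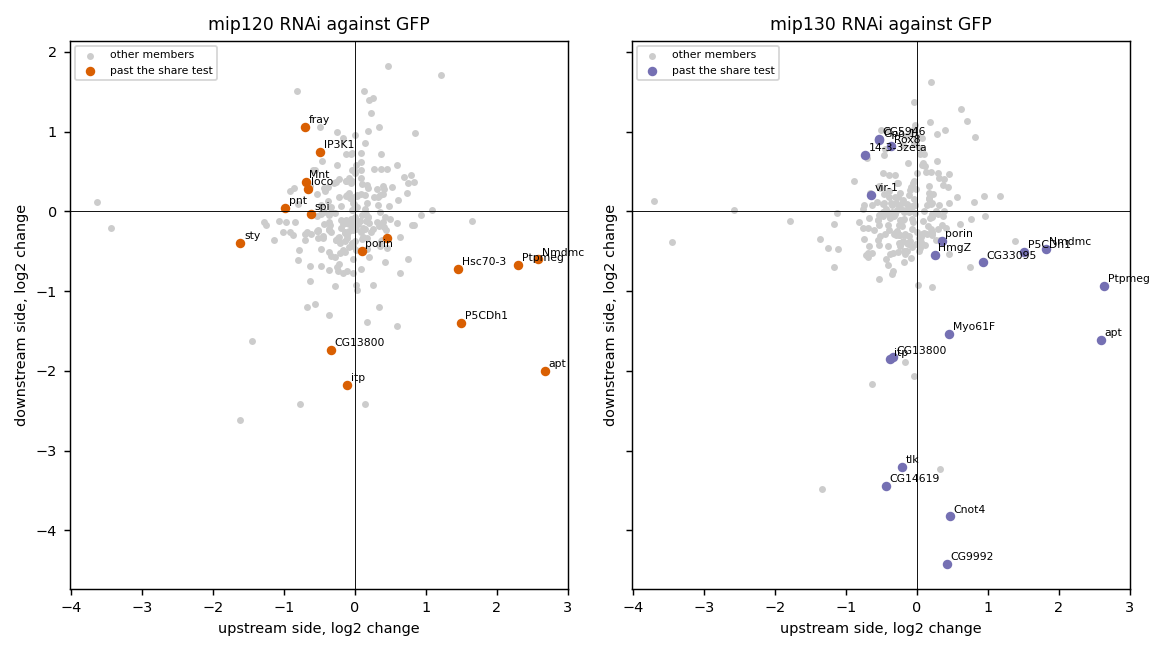
Change of the downstream side on the y axis against change of the upstream side on the x axis, RNAi minus GFP on the log2(FPKM + 1) scale, for mip120 and mip130 RNAi. Called genes are in colour and all but 1 are named. apt, Ptpmeg, Nmdmc and P5CDh1 lie at upper values of x, while itp and CG13800 lie near 0 on x and low on y, as do Cnot4, CG9992, CG14619 and tlk for mip130 RNAi.

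The knockdowns were also set against each other in the same model. mip120 RNAi had a higher share than mip40 RNAi in 1 of the 251 genes, beside 0.397% of all 504, and a lower one in 2, beside 0.397% (0.794% in either direction). mip130 RNAi had a higher share than mip40 RNAi in 2, beside 0.794%, and a lower one in 3, beside 0.992% (1.79% in either). mip130 and mip120 RNAi differed in 0 genes, beside 0% called, although 49 had an unadjusted limma p under 0.05. Hsc70-3 had the higher share in mip120 than in mip40 RNAi (88.8% and 93.3%, against 68.0% and 64.2%), and Cnot4 and tlk in mip130 than in mip40 RNAi. Rab5, the GTPase of early endosomes, had the lower share in mip120 (61.6% and 50.4%) and mip130 (59.0% and 59.1%) than in mip40 RNAi (77.2% and 80.9%). CoRest, a corepressor that acts with a histone demethylase, had 83.4% and 71.4% in mip120 and 73.2% and 76.5% in mip130, against 98.0% and 100% in mip40 RNAi. Rab5 and CoRest passed no comparison with GFP, and their GFP values of 70.3% and 70.7%, and 83.8% and 88.5%, lay between. For mip120 against mip40 RNAi the count fell to 0 without either GFP library, either mip130 library or mip40 library 1, and to 1 without mip40 or mip120 library 2. For mip130 against mip40 RNAi it fell to 0 without either GFP or either mip130 library, to 1 without mip40 library 1 and to 3 without mip40 library 2.

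Total FPKM was tested over another set of genes than the share, so the counts of the 2 tests are not compared. The total was higher in 11 of the 251 genes in mip40 RNAi, beside 5.69% of 7835 genes, and lower in 11, beside 3.51% (9.2% in either direction). In mip120 RNAi it was higher in 53, beside 17.6%, and lower in 61, beside 18.9% (36.5% in either). In mip130 RNAi it was higher in 32, beside 19.3%, and lower in 61, beside 16.9% (36.2% in either). In E2F2 RNAi it was higher in 16, beside 9.28%, and lower in 4, beside 2.72% (12% in either). The called totals were 8.76%, 45.4%, 37.1% and 7.97% of the 251 genes in mip40, mip120, mip130 and E2F2 RNAi. The splits moved with scaling: with quantile normalization they were 6 and 13, 60 and 61, 30 and 70, and 7 and 9, and with median-ratio scaling 10 and 12, 62 and 53, 31 and 64, and 9 and 9. Leaving out 1 library lowered the counts to 5 (mip40 library 1 or either GFP library), 8 (mip40 library 2), 9 (either mip120 library) and 12 (either mip130 library) in mip40 RNAi, and to 56 (mip120 library 2), 71 (GFP library 2) and 73 (mip120 library 1) in mip120 RNAi. It lowered them to 38 (GFP library 2), 42 (mip130 library 2) and 56 (mip130 library 1) in mip130 RNAi, and to 4 (GFP library 2), 6 (GFP library 1) and 7 (either mip120 library) in E2F2 RNAi. Of the genes called for share, 2 of 2, 11 of 16, 8 of 19 and 1 of 1 were also called for their total. A share is a ratio within a library, so a common factor between libraries cancels in it apart from the added 1 FPKM.

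Transcripts were also tested singly, most of them in genes whose share was not called. Over the 376 upstream transcripts of the 251 genes, 3 were higher and 0 lower in mip40 RNAi, beside 1.65% of 12752 transcripts called. In mip120 RNAi 31 were higher and 45 lower, beside 13.7%, in mip130 RNAi 28 and 51, beside 14%, and in E2F2 RNAi 8 and 6, beside 2.53%. Over the 369 downstream transcripts 2 were higher and 0 lower in mip40 RNAi (beside 1.65%), and 27 and 29 in mip120 RNAi (beside 13.7%). In mip130 RNAi 25 were higher and 32 lower (beside 14%), and in E2F2 RNAi 5 and 4 (beside 2.53%). These background shares take both directions together, so the splits by direction are not read against them. The 2 ends were not tested against each other. The calls of both sides together, 5, 132, 136 and 23, were 1 without either mip120 library and 2 without either mip130 library in mip40 RNAi, 35 without mip120 library 2 and 47 without GFP library 2 in mip120 RNAi, 25 without mip130 library 2 or GFP library 2 in mip130 RNAi, and 5 without GFP library 2 in E2F2 RNAi. They also moved without mip40 library 2 (8 in mip40 RNAi), mip120 library 1 (66 in mip120, 13 in E2F2 RNAi), mip130 library 1 (56 in mip130 RNAi) and GFP library 1 (61 in mip120, 76 in mip130 and 11 in E2F2 RNAi).

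Gene lists had been compiled with earlier results of these data known, and some of their genes were among the 251. Of 66 listed transcription factors 15 were among the 251, and 2 were lower in mip120 RNAi (pnt and Mnt), beside 2.58% of all 504 genes. Of 77 signalling genes 10 were, with sty lower in mip120 RNAi (beside 2.58%) and 14-3-3zeta lower in mip130 RNAi (beside 2.98%). Of 56 metabolic genes 10 were, with Nmdmc higher in mip120 RNAi (beside 1.98%) and mip130 RNAi (beside 3.17%). Of 59 chromatin factors 3 were, with HmgZ, an HMG-box chromatin protein, higher in mip130 RNAi, beside 3.17%. Its share was 40.1% and 33.6% in mip130 RNAi, against 26.1% and 24.5% in GFP RNAi. This call (limma adjusted p = 0.0467) was lost when any 1 library except that of E2F2 RNAi was left out. These lists are too small for their counts to be read against the background. No share was called in the 9 RNA-binding, 6 cytoskeletal and 3 cell-cycle genes or in Dp, and no other member of the lists passed in any comparison with GFP. The median share difference of the 15 transcription factors was 0.19, 0.87, -0.59 and -0.23 points in mip40, mip120, mip130 and E2F2 RNAi, beside -0.17, 0.01, -0.58 and -0.35 over all 504 genes.

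Dp, the E2F dimerisation partner and the single dREAM subunit among the 251 genes (2R, 2889 bp), had an upstream share of 74.6% and 79.0% in mip40, 84.6% and 84.2% in mip120, 85.2% and 78.2% in mip130 and 70.1% in E2F2 RNAi, against 79.1% and 81.6% in GFP RNAi. The mip40 and E2F2 libraries lay below both GFP libraries and the mip120 libraries above, but no comparison passed. The gene listed as E2f (3R, 27924 bp) had 15.8% and 14.9% in mip40, 19.9% and 20.2% in mip120, 19.1% and 17.2% in mip130 and 14.3% in E2F2 RNAi, against 15.3% and 14.9% in GFP RNAi, with limma adjusted p of at least 0.139. CycE, the cyclin of S-phase entry (2L, 1546 bp), had 26.6% and 37.1% in mip40, 28.4% and 27.2% in mip120, 28.4% and 24.7% in mip130 and 20.9% in E2F2 RNAi, against 27.4% and 18.3% in GFP RNAi. Its share in each RNAi group overlapped or lay between the GFP libraries, which themselves differed by 9.16 points.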

How the data were processed

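The authors deposited FPKM per transcript for 9 RNA libraries, with read mapping and assembly by Bowtie 1.1.1, TopHat2 2.0.12, Cufflinks and Cuffnorm, per the submitters' processing notes. The sources used here give no settings, annotation release, strand setting or genome build, so positions are those of the table and no sequence is shown. The isoform FPKM are estimates, since reads in shared exons are assigned by a model, and a TSS is the 5′ end of a transcript model. The 4 columns of averages were not used. The chromatin and naked DNA samples were not analysed here.

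Known transcripts (class code =) were split at 1000 bp from the most upstream active TSS. The share was tested with limma 3.58.1 in R 4.3.3 in 1 model of 5 groups over 9 libraries (4 residual and 2.52 prior degrees of freedom), with moderation by a trend on the lower side's mean log2(FPKM + 1). Totals (known, new-isoform and overlapping models, 7835 genes) and single known transcripts (12752) were tested on log2(FPKM + 1) where 2 or more libraries reached an FPKM of 1. Adjustment was Benjamini-Hochberg at 0.05, and errors of log2 ratios are SE of the model. In tests on simulated data the changes recovered had the right sign. The share changes put in were larger than most of those called here, so recovery at the called sizes was not tested. With 2 libraries against 2, an exact permutation test of a single gene cannot reach 0.05. Symbols matched current names in 201 genes and older ones in 47, and 3 were ambiguous.

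The members and lists were chosen with earlier results of these data known. Genes named were, per comparison, up to 8 per direction by size of share difference among those called with libraries not overlapping, the 4 steadiest with a mean total of at least 20 FPKM, the 4 least reproducible, those at the threshold and up to 6 members of each list. The values of 1 gene called in mip120 RNAi are not reported here.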

Additional observations from a re-analysis of the deposited data

Results flagged for a closer look

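Several genes differed in promoter share between knockdowns under the same contrast. The tested differences are given as changes of the log2 ratio of the (FPKM + 1) values and passed limma's adjusted 0.05 over 504 genes. mip120 minus mip40 RNAi gave 2.41 for Hsc70-3, -3.23 for CoRest and -1.56 for Rab5. mip130 minus mip40 RNAi gave 3.00 for Cnot4, 3.61 for tlk, -3.47 for CoRest, -1.39 for Rab5 and -1.13 for vir-1. A side was listed at 0 in at least 1 library for Cnot4, tlk and CoRest, so no fold is read from those values. CoRest and Rab5 were named after their values were seen.

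In other genes the single E2F2 library lay on the opposite side of both GFP libraries from both libraries of a mip group in which the share was called, and this difference was not tested. With the E2F2 share first, it was 28.1% in P5CDh1 (78.8% and 80.6% in mip120 RNAi, 30.2% and 33.9% in GFP RNAi; likewise against mip40 and mip130 RNAi), 54.2% in Hsc70-3 and 37.9% in loco (both against mip120 RNAi). Against mip130 RNAi it was 43.5% in CG14619, 15.1% in CG33095, 74.5% in CG5946, 60.9% in CG9992 and 79.6% in vir-1.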

How the results depend on the processing

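Counts of called genes depend on the settings. Leaving out 1 library gave 0 to 3 calls of share in mip40, 2 to 13 in mip120, 2 to 19 in mip130 and 0 to 2 in E2F2 RNAi, 0 to 3 for mip120 against mip40, 0 to 6 for mip130 against mip40 and 0 for mip130 against mip120 RNAi. For totals it gave 5 to 23, 56 to 114, 38 to 93 and 4 to 21, and for single transcripts 1 to 8, 35 to 135, 25 to 136 and 5 to 19 in mip40, mip120, mip130 and E2F2 RNAi. Of 747 settings over the 38 gene and comparison pairs, 418 kept the call, 326 kept the direction alone and 3 changed sign. The changed log2 ratios were 1.22 for Mnt in mip120 RNAi at a mean FPKM of 2, and with new isoforms added -0.078 for a gene not named here in mip120 and -0.12 for CG14619 in mip130 RNAi. Between knockdowns, Rab5 gave 0.77 (mip120) and 0.89 (mip130) against mip40 RNAi at 500 bp and vir-1 0.024 (mip130 against mip40) at 2000 bp, where other transcripts form the sides.

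Counts that moved by over 1.5 times were as follows. In mip40 RNAi (2 calls) 1 was left at a pseudocount of 0.1, TSS 500 bp or 2000 bp apart, the percent scale, the compared groups alone, no trend, and members passing on each compared group alone, and 0 at a mean FPKM of 10. In mip120 RNAi (16) there were 10 at a mean FPKM of 10, 10 with new isoforms, 3 with the compared groups alone and 7 without the trend. In mip130 RNAi (19) there were 6 at a pseudocount of 0.1, 10 and 29 at a mean FPKM of 10 and 2, 10 at 2000 bp, 10 on the percent scale, 11 with the compared groups alone, 12 without the trend and 10 among members passing on each group alone. In E2F2 RNAi (1) there were 5 at a pseudocount of 0.1, 6 at a mean FPKM of 10, 5 at 500 bp, 0 with every known transcript summed, 4 with new isoforms, 2 on the percent scale and 0 among members passing on each group alone. For mip120 against mip40 RNAi (3) there were 0 at a pseudocount of 0.1, 7 at a mean FPKM of 2, 7 at 500 bp, 13 at 2000 bp and 0 with the compared groups alone. For mip130 against mip40 RNAi (5) there were 1 at a pseudocount of 0.1, 3 and 8 at a mean FPKM of 10 and 2, 2 at 2000 bp, 2 with new isoforms, 0 on the percent scale, 2 with the compared groups alone and 3 without the trend. For mip130 against mip120 RNAi (0 by limma) there was 1 at a pseudocount of 0.1. Totals in E2F2 RNAi gave 10 without the filter on low values. Single transcripts gave 11 with median-ratio scaling and 3 without the filter in mip40, 87 in mip120 and 80 in mip130 RNAi without the filter. The causes of these moves were not tested. A model of E2F2 and GFP libraries alone was not run.

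With the replicate number as a block, calls of share were 1, 6, 9 and 1 in mip40, mip120, mip130 and E2F2 RNAi and 0 for mip120 and for mip130 against mip40 RNAi. Totals under the block gave 6 in mip40 and 7 in E2F2 RNAi, and single transcripts 1 in mip40, 85 in mip130 and 5 in E2F2 RNAi. Deviations of same-numbered libraries correlated between -0.06 and 0.24 for shares and -0.13 and 0.02 for gene totals, so the numbers are not taken to pair the libraries. The alternatives on members passing each group alone, on differences between knockdowns, on single transcripts and the block for totals were chosen after seeing the data.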

Other observations

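Shifts between TSS less than 1000 bp apart, or within the downstream side, do not enter the upstream share. Eb1 kept an upstream share of 98.3 to 99.1% in all libraries and its total passed no test, but 1 of its upstream transcripts, starting 289 bp from the most upstream TSS, stood at 11.9 and 4.74 FPKM in mip120 and 5.59 and 2.73 in mip130 RNAi, against 233 and 229 in GFP RNAi. It stood at 472 and 164 in mip40 and 471 in E2F2 RNAi, and the log2 change was -4.75 ± 0.60 in mip120 (limma adjusted p = 0.00756) and -5.55 ± 0.60 in mip130 RNAi (0.00574). In sty the transcript with the most downstream TSS stood at 53.5 and 44.9 FPKM in mip120 and 17.7 and 19.1 in mip130 RNAi, against 152 and 211 in GFP RNAi, while the downstream transcript starting 6486 bp from the upstream TSS stood at 415 and 391, and 358 and 341, against 379 and 451. Both genes were looked at after their values were seen.

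Some differences of over 25 points did not pass the share test. In E2F2 RNAi, with 1 library, PEK was 43.1 points lower and Idh 38.6 points higher than in GFP RNAi (limma adjusted p = 0.0727 and 0.0593).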
